A study of Mus musculus with 6 samples.

Results

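Elf5 and 9 other genes of the ETS transcription factor family were followed in YFP+ luminal mammary epithelial cells (MECs, Lin-CD24+CD29lo) with and without Runx1. The 10 genes are Elf5, Elf3, Ehf and Spdef, which are the epithelial ETS factors, and Ets1, Ets2, Elf1, Elf2, Elk3 and Etv6. They were taken by symbol, as every probe set that the array annotation pairs with exactly 1 of these symbols, without regard to its values. This gave 26 of the 45037 probe sets on the array that are no controls, or 10 of 18193 genes, and 24 of the 26 were bright enough to be tested. The cells came from adult virgin females of a mixed B6/129/FVB background, 3 with the genotype MMTV-Cre;Runx1L/L;R26Y (Runx1-null) and 3 with the genotype MMTV-Cre;Runx1+/+;R26Y (Runx1-WT), with 1 Affymetrix Mouse Genome 430 2.0 array per mouse. All 6 mice carried the MMTV-Cre transgene and the R26Y reporter, so YFP marks cells in which Cre had acted in both genotypes. MMTV-Cre acts in subsets of MECs, and a YFP+ cell of a Runx1L/L mouse may have escaped disruption of Runx1. Values are linear intensities that the authors normalized with dChip, and differences are Runx1-null minus Runx1-WT on the log2 scale, from limma fitted to all 27022 probe sets above an intensity filter.

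ETS factors share a DNA-binding domain that reads a GGA core, and differ in the partners and cell types in which they act. ELF5 drives the alveolar fate of luminal cells, downstream of prolactin, JAK2 and STAT5, and switches on milk genes. RUNX1 is a transcription factor of ductal luminal and basal MECs, and the comparison addresses whether the ETS factors of luminal cells, Elf5 first, change when it is lost. ELF3 and EHF are the closest epithelial relatives of ELF5, SPDEF is a factor of secretory epithelia, ETS1 and ETS2 act downstream of growth factor signaling, ELF1 and ELF2 are widely expressed, ELK3 is a ternary complex factor and ETV6 is a repressor.

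The windows around the transcription starts of these genes, from 250 bases before to 50 bases after the start, were read from RefSeq (GRCm38.p6) for the letters that RUNX proteins recognize, TGTGGT or TGCGGT on either strand. For 8 of the genes 11 such windows were available here. No window was available for Ehf and Ets1, so these were not read. The letters stood in 2 of the 11, and in 7362 of the 32851 windows of all genes, or 22.4%. Elf5 had 2 windows on chromosome 2, plus strand, at chr2:103411848-103412147 and chr2:103423818-103424117, and neither held the letters. The windows with a match were those of Spdef (chr17:27728902-27729201, minus strand), where TGCGGT starts at position -87, and 1 of the 2 of Elf2 (chr3:51340595-51340894, minus strand), where it starts at position -177. Both Elf5 windows are printed because Elf5 is the gene the comparison turns on, and the other windows because they hold the match. Each is given 5' to 3' on the strand of its gene, with the matching letters in capitals:
Elf5, first window: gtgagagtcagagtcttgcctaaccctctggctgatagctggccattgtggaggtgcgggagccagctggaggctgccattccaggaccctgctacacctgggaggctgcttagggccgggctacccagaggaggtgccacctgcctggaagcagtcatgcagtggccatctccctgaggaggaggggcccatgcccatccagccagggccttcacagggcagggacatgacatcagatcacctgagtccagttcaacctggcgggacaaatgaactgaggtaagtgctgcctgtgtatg
Elf5, second window: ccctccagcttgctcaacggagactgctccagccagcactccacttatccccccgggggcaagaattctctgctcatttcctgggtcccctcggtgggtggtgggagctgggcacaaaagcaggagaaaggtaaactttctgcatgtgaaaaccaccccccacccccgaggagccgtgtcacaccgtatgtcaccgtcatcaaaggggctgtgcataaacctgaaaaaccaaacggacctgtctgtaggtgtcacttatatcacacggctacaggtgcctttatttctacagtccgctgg
Spdef: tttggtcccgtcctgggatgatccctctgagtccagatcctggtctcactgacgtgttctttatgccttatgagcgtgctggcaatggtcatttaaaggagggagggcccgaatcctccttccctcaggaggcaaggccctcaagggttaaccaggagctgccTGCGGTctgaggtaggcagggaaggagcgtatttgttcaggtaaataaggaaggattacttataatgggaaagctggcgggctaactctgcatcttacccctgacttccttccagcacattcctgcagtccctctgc
Elf2: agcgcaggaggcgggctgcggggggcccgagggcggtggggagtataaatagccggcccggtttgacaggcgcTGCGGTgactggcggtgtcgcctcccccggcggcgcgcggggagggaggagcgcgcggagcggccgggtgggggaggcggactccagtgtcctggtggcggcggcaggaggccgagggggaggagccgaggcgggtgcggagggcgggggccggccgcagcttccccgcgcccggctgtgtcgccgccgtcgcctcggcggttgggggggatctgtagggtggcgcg
A match of 6 letters is no evidence of binding, and its absence says only that these letters are not in this window. Runx1 and Ets2 both lie on chromosome 16, with 48 annotated genes between them, 18 of them protein coding. Elf5 and Ehf are neighbors on chromosome 2, with 2 annotated genes between them and no protein-coding one.

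No difference of the 24 ETS probe sets between Runx1-null and Runx1-WT luminal cells passed the test. At a Benjamini-Hochberg adjusted p under 0.05 limma called 0 of 24, and 0% of all 27022 probe sets tested. At an unadjusted p under 0.05 it gave 0 of 24, against 360 or 1.33% of all. No ETS probe set had every Runx1-null mouse above every Runx1-WT mouse, an order seen for 482 or 1.78% of all, and none had every Runx1-null mouse below, seen for 828 or 3.06% of all. The smallest unadjusted p of the 24 was 0.168 (limma), for the dimmer Etv6 probe set, and the smallest adjusted p was 0.999992, as it was over all probe sets. The differences ran from -0.66 for an Ets1 probe set to 0.48 for Elf5, with 10 higher, 14 lower and a median of -0.04. Over all probe sets the median was also -0.04, and 40.8% were higher. With each array scaled to its median, 16 of the 24 were higher and 8 lower, beside 58.9% higher of all. The 95% interval of the difference stayed within 2-fold in either direction for 14 of the 24, reached a 2-fold higher level for 6 and a 2-fold lower level for 8. The study's methods describe the mice as littermates without saying which shared a litter, so the fits take the 6 mice as independent, and their number limits the precision: an exact permutation test of 3 mice against 3 cannot give a p below 0.1. The intervals differ widely in width between probe sets, as the plot of the differences shows.

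**Figure D1:**
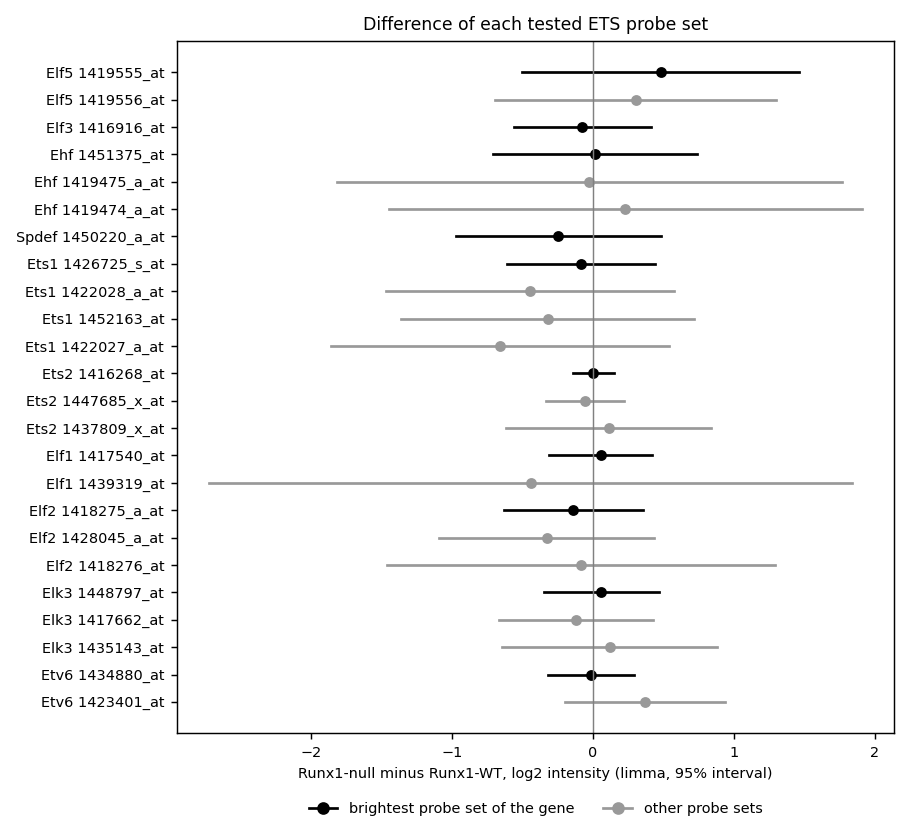
Difference between Runx1-null and Runx1-WT luminal cells for each of the 24 tested ETS probe sets (horizontal axis, log2 intensity; points, limma estimates; bars, 95% intervals; n = 3 mice each). Black marks the brightest probe set of a gene, and every interval crosses 0, with the narrowest for Ets2.

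The targeted gene could not serve as a check of the labels on these arrays. Of the 6 probe sets for Runx1, 4 were higher and 2 lower in Runx1-null cells, with differences from -0.19 to 0.26 and overlapping groups on each. The Runx1L allele loses exon 4, and where these probe sets lie against that exon was not analysed here, so transcripts without the exon may still be measured. Luminal keratins and Epcam were bright on all arrays: Krt8 was at 10459 to 12535, Krt18 at 12516 to 14017 and Epcam at 9411 to 10667. Markers of other cells were present at varying levels. The summed intensity of 11 leukocyte markers was 5534 in Runx1-WT mouse 3 and 1141 to 2060 in the other mice, and that of 12 basal and myoepithelial markers ran from 5523 to 15237. The summed intensities of 10 endothelial markers were 2062 to 2710 in Runx1-WT and at 1463 to 1719 in Runx1-null mice, with all 9 tested endothelial markers and all 10 fibroblast and matrix markers lower in Runx1-null cells and none of them at an unadjusted p under 0.05. The summed fibroblast and matrix intensities were 15275, 14557 and 12873 in Runx1-WT mice against 11975, 13327 and 5252 in Runx1-null mice, so Runx1-null mouse 3 stood apart and the groups overlapped. No gene of these lists was below the intensity floor in all mice. These lists share no gene with the 10 ETS genes, and their part in the values below was not tested. In bulk RNA, fewer cells of a type and less RNA per cell cannot be told apart.

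Elf5 had the largest mean difference toward a higher level, and a single Runx1-WT mouse carried it. On the brighter of its 2 probe sets (1419555_at), Elf5 was at 2691, 1119 and 3640 in Runx1-WT mice 1, 2 and 3, and at 2785, 3126 and 3409 in Runx1-null mice 1, 2 and 3. The Runx1-null mice lay close together, Runx1-WT mouse 2 lay far below all others and Runx1-WT mouse 3 was the highest of all, so the groups overlapped. The means were 2483 ± 1273 (SD, n = 3) and 3107 ± 313 (SD, n = 3), and the log2 difference was 0.48 ± 0.41 (SE) with a 95% interval from -0.50 to 1.46 (limma, p = 0.284; exact permutation test, two-sided, p = 0.6). In folds the interval runs from 0.705 to 2.75, so the data exclude neither a more than 2-fold higher Elf5 level nor a somewhat lower one. Without Runx1-WT mouse 2 the difference was -0.02, and without Runx1-WT mouse 3 it was 0.84 (limma, unadjusted p = 0.0696, adjusted p = 0.848).

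The dimmer Elf5 probe set (1419556_at) gave the same picture of the mice. It was at 254, 145 and 451 in Runx1-WT and at 320, 336 and 291 in Runx1-null mice, with a difference of 0.30 ± 0.42 (SE; limma, p = 0.492; exact permutation test, p = 0.7). Runx1-WT mouse 2 was again the lowest and Runx1-WT mouse 3 the highest. The log2 values of both probe sets had a Pearson's r of 0.93 over the 6 mice, so the low value of Runx1-WT mouse 2 was measured by both.

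**Figure D2:**
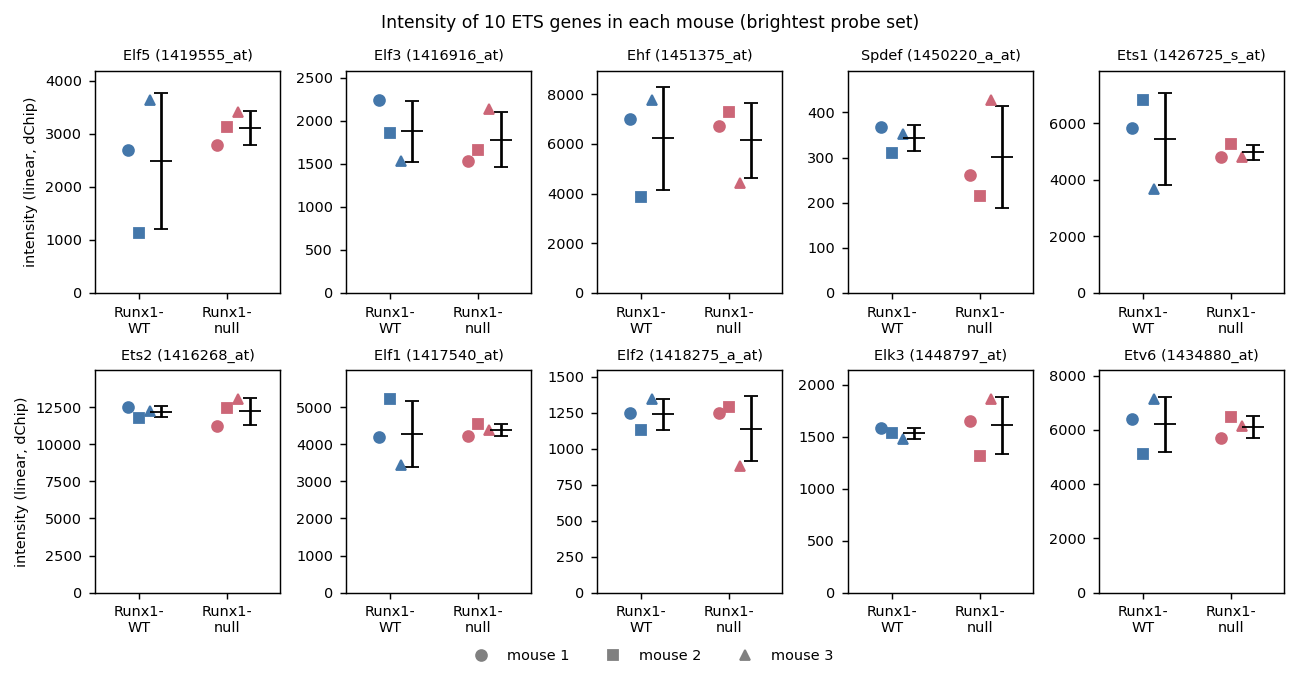
Intensity (vertical axes, linear, dChip-normalized, starting at 0) of the brightest probe set of each of the 10 ETS genes in each mouse (symbols; blue, Runx1-WT; red, Runx1-null), with the mean ± SD of 3 mice beside them in black. For each gene the symbols of both genotypes overlap, and Elf5 and Ehf are low in Runx1-WT mouse 2.

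The animal numbers in the labels fall into a lower range (mice 1 and 2 of each genotype) and an upper range (mouse 3 of each), and whether this reflects a litter or a date is not stated. Among the 4 lower-range mice the Elf5 difference was 0.77 on each probe set (limma, adjusted p = 0.526 and adjusted p = 0.468), while the upper-range pair differed by -0.09 and -0.63, with 1 mouse a genotype and no test. On its brighter probe set Elf5 was higher in both upper-range mice than in all lower-range mice, as was 1 Elk3 probe set (1435143_at). These are 2 of 24 probe sets, or 8.33%, against 8.97% of all. The opposite order, both upper-range mice lowest, held for 5 of 24 or 20.8% of the ETS probe sets against 20.2% of all, both shares being close to that of the whole array. Over the whole array a complete order by genotype was rarer, at 1.78% with Runx1-null higher and 3.06% with Runx1-null lower. These orders compare groups of different sizes, so their shares are not directly comparable. The main fit has no term for the animal number range.

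Ehf, the neighbor and close relative of Elf5, had nearly equal mean levels in both genotypes on its brightest probe set and varied widely between mice. Its brightest probe set (1451375_at) was at 7007, 3868 and 7787 in Runx1-WT mice and at 6707, 7302 and 4422 in Runx1-null mice. Runx1-WT mouse 2 and Runx1-null mouse 3 were low and the other 4 mice high, a split that runs across the genotypes. The difference was 0.01 ± 0.30 (SE), with a 95% interval from -0.71 to 0.74 (limma, p = 0.969; exact permutation test, p = 1). Its other tested probe sets separated the same mice more widely. On 1419475_a_at the values were 2478, 637 and 3673 against 2485, 2782 and 795. On 1419474_a_at they were 1537, 453 and 3371 against 1888, 1937 and 1032. The highest mouse was 5.77-fold and 7.44-fold above the lowest on these probe sets, only 6.18% and 7.48% of all tested probe sets had a larger SD within genotypes, and the 3 probe sets correlated with each other with r of at least 0.93 over the 6 mice.

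Because the low Ehf values fell in 1 mouse of each genotype, the genotype difference turned with the mice used. Among the lower-range mice it was 0.43, 1.07 and 1.20 on the 3 probe sets, and in the upper-range pair -0.82, -2.21 and -1.71. The 2 mice with low Ehf were also the lowest for the basal and myoepithelial list, whose summed intensity was 5551 in Runx1-WT mouse 2 and 5523 in Runx1-null mouse 3 against 7625 to 15237 in the other mice, and the part of basal cells in the Ehf values was not tested. A 4th Ehf probe set (1447760_x_at) stayed between 0.436 and 7.64 in all mice, below the floor of 19.4, and was not tested.

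Elf3 and Spdef, the remaining epithelial factors, each had 1 probe set. Elf3 (1416916_at) was at 2247, 1857 and 1539 in Runx1-WT and at 1538, 1659 and 2142 in Runx1-null mice, so the groups spanned the same range. Its difference was -0.08 ± 0.20 (SE; limma, p = 0.716; exact permutation test, p = 0.7), with an interval from -0.56 to 0.41 that holds no 2-fold change. Spdef (1450220_a_at) was at 367, 311 and 353 in Runx1-WT mice, and at 261, 215 and 428 in Runx1-null mice. Runx1-null mice 1 and 2 lay below all Runx1-WT mice and Runx1-null mouse 3 above them, for a difference of -0.25 ± 0.31 (SE; limma, p = 0.443; exact permutation test, p = 0.5). The Spdef difference stayed negative without any 1 mouse, from -0.53 to -0.03. Among the lower-range mice the differences were -0.35 for Elf3 and -0.51 for Spdef, and in the upper-range pair 0.48 and 0.28. When limma weighted the arrays by their estimated quality, Elf3 (-0.34) and Spdef (-0.67) were the 2 of 24 ETS probe sets (8.33%) with an unadjusted p under 0.05, a smaller share than the 18.1% of all probe sets under these weights, with an adjusted p = 0.21 and an adjusted p = 0.16.

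Ets1 was lower on average on each of its 4 probe sets in Runx1-null cells, except that scaling each array to its median put the brightest at 0.0048, and no difference passed the test. The brightest (1426725_s_at) was at 5827, 6841 and 3673 in Runx1-WT mice and at 4825, 5276 and 4808 in Runx1-null mice. Runx1-WT mice 1 and 2 were above all Runx1-null mice and Runx1-WT mouse 3 below them. The difference was -0.09 ± 0.22 (SE), with an interval from -0.61 to 0.44 (limma, p = 0.707; exact permutation test, p = 0.9). The dimmest (1422027_a_at) had the largest difference of all 24, at -0.66 ± 0.50 (SE; limma, p = 0.232; exact permutation test, p = 0.3), from levels at 973, 1030 and 356 in Runx1-WT and at 486, 654 and 284 in Runx1-null mice. The other 2, 1422028_a_at and 1452163_at, differed by -0.45 and -0.32. Over the 6 mice the 4 probe sets correlated with r between 0.82 and 0.99. Runx1-WT mouse 2 was the highest on each, and the lowest was Runx1-WT mouse 3 on 1426725_s_at and 1452163_at and Runx1-null mouse 3 on 1422028_a_at and 1422027_a_at.

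The size of the Ets1 difference turned on Runx1-WT mice 2 and 3. Without Runx1-WT mouse 3 the 4 differences were -0.35, -0.89, -0.82 and -1.16, from the brightest probe set to the dimmest, each at an unadjusted p between 0.011 and 0.0302 and with an adjusted p = 0.848 (limma). These are 4 of 24 ETS probe sets, or 16.7%, against 4.96% of all probe sets in that fit, and all 4 measure 1 gene. Without Runx1-WT mouse 2 the differences were 0.10, -0.16, 0.07 and -0.39, in the same order of probe sets. Among the lower-range mice alone the differences were -0.32, -0.63, -0.81 and -0.83, with adjusted p values from 0.376 to 0.408 (limma), where 11.4% of all probe sets passed an unadjusted p under 0.05. Both Runx1-null mice were below both Runx1-WT mice there on 4 of 4 Ets1 probe sets, and on 6 of the 24 ETS probe sets (25%), against 22.2% of all. In the upper-range pair the sign was mixed, at 0.39, -0.09, 0.65 and -0.33. With the animal number range as a block, 1422027_a_at alone of the 24 (4.17%) had an unadjusted p under 0.05 (-0.66, limma, adjusted p = 0.9999), against 2.21% of all. ETS1 is also a factor of endothelial cells and lymphocytes. The endothelial list was lower in each Runx1-null mouse than in each Runx1-WT mouse, as given above, while Runx1-WT mouse 3, the lowest for the brightest Ets1 probe set, was the highest for the leukocyte list, and the part of these cells in the Ets1 values was not tested.

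**Figure D3:**
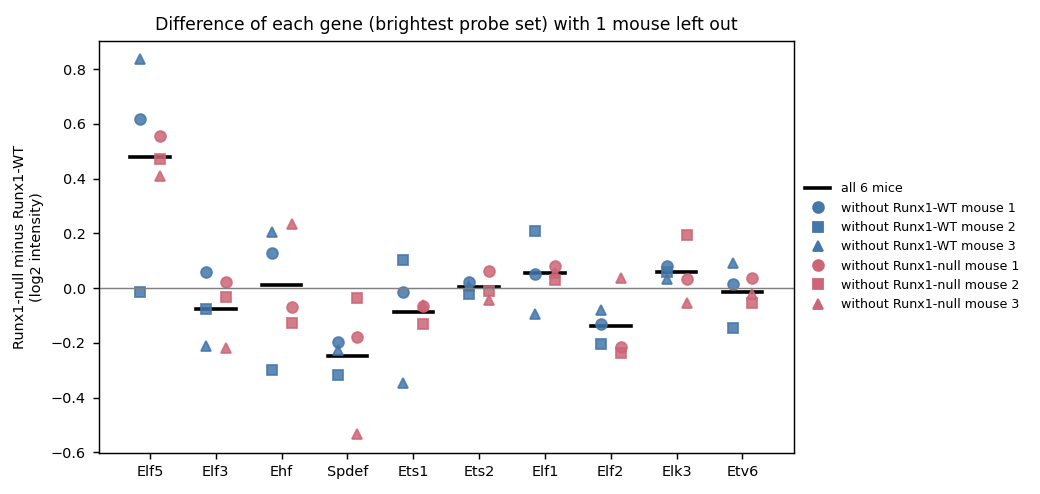
Difference between Runx1-null and Runx1-WT (vertical axis, log2 intensity) for the brightest probe set of each gene with all 6 mice (black bars) and with each mouse left out in turn (symbols; color, the genotype of the mouse left out). Elf5 moves from 0.48 to -0.02 without Runx1-WT mouse 2, Ets1 from -0.09 to -0.35 without Runx1-WT mouse 3, and Ets2 hardly moves.

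Ets2, the close paralog of Ets1, varied least between mice among the 10 genes, on a probe set near the top of the intensity range. Its brightest probe set (1416268_at) was at 12512, 11789 and 12270 in Runx1-WT and at 11249, 12415 and 13023 in Runx1-null mice. The highest mouse was only 1.16-fold above the lowest, and 95% of all tested probe sets varied more within genotypes. Only 0.181% of tested probe sets were brighter, however, and among the 179 with a mean of at least 10000 the median SD within genotypes was 0.05 on the log2 scale, against 0.08 for Ets2 and 0.32 for all. Whether intensities this high understate differences was not tested. The difference was 0.00 ± 0.06 (SE), with a 95% interval from -0.14 to 0.15, or 0.907- to 1.11-fold (limma, p = 0.97; exact permutation test, p = 1). This is the narrowest interval of the 24, for intensities as measured on this probe set. The other Ets2 probe sets differed by -0.06 (1447685_x_at, 2831 to 3545) and 0.11 (1437809_x_at, 92.1 to 138), with overlapping groups.

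Elf1 and Elf2, the widely expressed relatives of ELF5, did not separate the genotypes either. The brightest Elf1 probe set (1417540_at) was at 4186, 5207 and 3429 in Runx1-WT and at 4221, 4540 and 4370 in Runx1-null mice, a difference of 0.05 ± 0.15 (SE; interval -0.31 to 0.42; limma, p = 0.732; exact permutation test, p = 0.7). A second Elf1 probe set (1439319_at) behaved differently, at 1992, 986 and 314 in Runx1-WT mice against 1104, 1298 and 172 in Runx1-null mice. The upper-range mouse of each genotype was the lowest on it, with an 11.6-fold span over the 6 mice, and only 2.55% of all tested probe sets had a larger SD within genotypes. Its r with the brighter Elf1 probe set was 0.35, so the 2 probe sets of this gene disagree on how the mice differ.

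The 3 Elf2 probe sets differed by -0.14, -0.33 and -0.09. On the brightest (1418275_a_at) the values were 1249, 1127 and 1343 in Runx1-WT and at 1248, 1287 and 881 in Runx1-null mice. Runx1-null mouse 3 was the lowest of the 6 mice on all 3 probe sets, at 415 on 1428045_a_at and 159 on 1418276_at, and without it the differences were 0.04, 0.01 and 0.52.

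Elk3 and Etv6, a ternary complex factor and a repressor, completed the set. Elk3 on its brightest probe set (1448797_at) was at 1584, 1536 and 1479 in Runx1-WT and at 1651, 1320 and 1861 in Runx1-null mice, a difference of 0.06 ± 0.17 (SE; limma, p = 0.747; exact permutation test, p = 0.7). Its other tested probe sets differed by -0.12 (1417662_at) and 0.12 (1435143_at), and a further one (1445886_at), at 15.2 to 42.3, was too dim to be tested. Etv6 was even on its brightest probe set (1434880_at), at 6389, 5124 and 7123 in Runx1-WT and at 5691, 6474 and 6160 in Runx1-null mice, a difference of -0.01 ± 0.13 (SE; limma, p = 0.922; exact permutation test, p = 1). The dimmer Etv6 probe set (1423401_at) was at 748, 510 and 847 in Runx1-WT and at 913, 834 and 914 in Runx1-null mice. Runx1-null mice 1 and 3 were above all Runx1-WT mice, and Runx1-null mouse 2 lay just below Runx1-WT mouse 3. Its difference of 0.37 ± 0.24 (SE) had the smallest p of the 24 (limma, p = 0.168; exact permutation test, p = 0.2), and it stayed positive without any 1 mouse, from 0.15 to 0.52. The sign of the difference held whichever mouse was left out for 5 of the 24 probe sets: this one, higher, and the Spdef probe set, Ets1 1422028_a_at, Ets1 1422027_a_at and Elk3 1417662_at, lower. The share of all probe sets that kept their sign was not computed. In the upper-range pair Spdef was nevertheless higher, at 0.28.

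**Figure D4:**
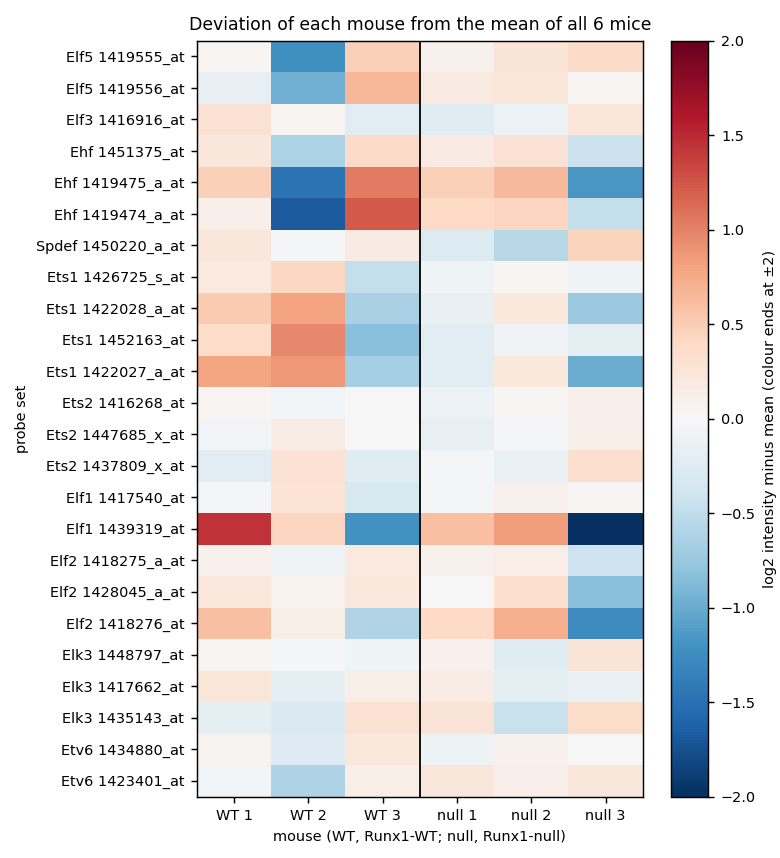
Log2 intensity of each mouse (columns; WT, Runx1-WT; null, Runx1-null) minus the mean of all 6 mice, for the 24 tested ETS probe sets (rows); red is above and blue below the mean, and the color scale ends at ±2. No row divides at the black line between the genotypes, while WT 2 and null 3 are low for Ehf and WT 3 is low for Ets1.

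Across the 6 mice, Elf5 was set against the other 9 genes, Runx1 and the mean log2 levels of the luminal progenitor and mature luminal lists, 12 relations in all. The closest by r over all mice was with the mean of the 12 luminal progenitor genes, with r = 0.89 (exact permutation test, two-sided, p = 0.00556, adjusted over the 12 relations p = 0.0667) and Spearman's rho = 0.94 (exact p = 0.0167, adjusted p = 0.1). The genes of this list did not all run with Elf5. Kit was lowest in Runx1-WT mouse 2 (2268) and highest in Runx1-WT mouse 3 (4839). Aldh1a3 was lowest in Runx1-WT mouse 3 (5668), and Ltf was at 6597 in Runx1-WT mouse 2 and 3406 in Runx1-WT mouse 3. Runx1-WT mouse 2 was the lowest and Runx1-WT mouse 3 the highest for both Elf5 and the mean log2 level of the list. Tnfrsf11b, another gene of the list, was at 308 in Runx1-WT mouse 3 and at 8.28 to 94.6 in the other mice. The mean and r without Tnfrsf11b were not computed, so the highest place of Runx1-WT mouse 3 may rest on this gene. On summed intensity the list was lowest in Runx1-null mouse 1 (38959) and highest in Runx1-null mouse 3 (55699). Without Runx1-WT mice 2 and 3, the farthest from the Elf5 median, r was 0.64 over 4 mice. Within genotypes, after removing each genotype's mean, r was 0.93. Ets1 ran opposite to Elf5, with r = -0.81 (exact permutation p = 0.0486, adjusted p = 0.194) and rho = -0.94 (adjusted p = 0.1), and r = -0.55 without the same 2 mice. Etv6 had r = 0.85 (exact permutation p = 0.0222, adjusted p = 0.133), which fell to 0.21 without those mice. For Ehf r was 0.67 with all mice and -0.73 without those 2, and for Elf1 -0.77 and 0.72, so these relations rest on those mice. Runx1 had r = -0.42 with all mice and -0.55 without those 2. The mature luminal list had r = 0.30 with all mice and rho = 0.77 (exact permutation test, adjusted p = 0.408). Without those 2 mice the r of the mature luminal list was 0.86 over 4 mice, beside 0.64 for the luminal progenitor list. Greb1, a gene of the mature luminal list, was at 888 in Runx1-null mouse 3 and at 10.6 to 57.2 in the other mice. The r without Greb1 was not computed, so the value of 0.86 may rest on this gene and does not rank the lists. None of the 12 relations passed an adjusted p of 0.05.

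**Figure D5:**
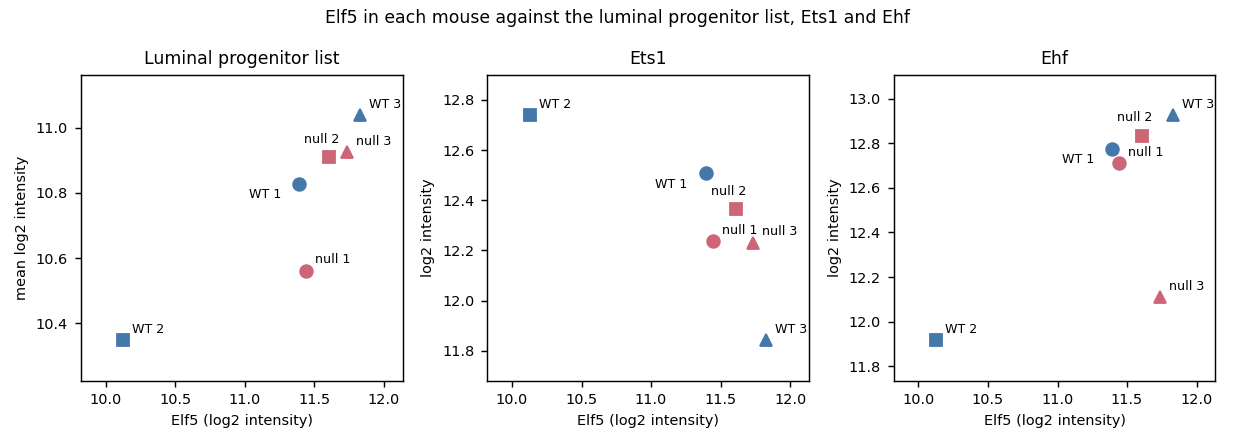
Elf5 (horizontal axes, log2 intensity of its brightest probe set) against the mean log2 intensity of 12 luminal progenitor genes, Ets1 and Ehf (vertical axes) in each mouse (blue, Runx1-WT; red, Runx1-null). WT 2 has the lowest Elf5, the lowest progenitor list and the highest Ets1, and both genotypes lie along the same spread.

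The single genes whose levels ran most like Elf5 over the 6 mice were Chpf, Hps4, Nat8f5, Fads1 and Ptges, with r from 0.98 to 0.99 among 10877 probe sets that varied enough to be ranked. Those that ran most opposite were Hmga2-ps1, Adgrg6, Rnf152, Adgra1 and Nrarp, with r from -0.99 to -0.97. In each of the 10, Runx1-WT mouse 2 was the extreme mouse, as it was for Elf5: Fads1, a fatty acid desaturase, was at 1241 in it and at 2357 to 3621 in the others, and Nrarp, a Notch target, at 1901 in it and at 952 to 1260 in the others. With 6 mice and this many probe sets, such values of r are a description of these arrays.

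The genes that act upstream of Elf5 in luminal cells also did not separate the genotypes as a group. Of 8 tested genes of prolactin, RANKL and related signaling, 5 were higher and 3 lower, with a median difference of 0.09 and 0 called. Prlr, the prolactin receptor gene, was not on the array under a single symbol and was not read. Tnfsf11, the RANKL gene, was at 4980 in Runx1-WT mouse 3 and at 6.87 to 337 in the other mice. Stat5b, which carries the prolactin signal, was the only 1 of the 8 with every Runx1-null mouse above every Runx1-WT mouse. This order was seen for 1.78% of all probe sets. Stat5b was at 2069, 1860 and 1963 against 2193, 2407 and 2189, a difference of 0.20 ± 0.12 (SE; limma, p = 0.134; exact permutation test, p = 0.1). Gata3, a luminal lineage factor, was at 4538, 3278 and 4361 against 2726, 3678 and 3376, a difference of -0.31 ± 0.17 (SE; limma, p = 0.111; exact permutation test, p = 0.3), with overlapping groups. Among the milk and alveolar secretion genes, 7 of 10 tested were higher and 3 lower, with a median of 0.22 and 0 called. Wap and Lalba of this list were too dim to be tested. Csn2, the beta-casein gene, was at 3119 in Runx1-WT mouse 3 and at 4.31 to 365 in the other mice. That mouse had the highest Elf5, the highest Tnfsf11 and also the highest leukocyte list. Csn2 was at 57.3 in Runx1-null mouse 3, whose Elf5 was the next highest (3409). Csn3, another casein gene, was lowest in Runx1-WT mouse 3 (10919), and the part of ELF5 in these values was not tested.

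The luminal progenitor list, in which Elf5 is known to be most active before pregnancy, had 7 of 12 genes higher and 5 lower with a median of 0.15. The mature luminal list had 4 of 11 higher and 7 lower with a median of -0.17. Areg, Ly6a and Prlr of this list were not on the array under a single symbol. On an unadjusted p under 0.05, 0 of 12 progenitor and 3 of 11 mature luminal genes passed, all 3 lower. In either direction 1.33% of all probe sets passed, and 213 of 10916 in the fit with 1 probe set per gene. After adjustment 0 of either list passed. The 3 were Cited1, Wnt4 and Foxa1. Cited1, a co-factor of the estrogen receptor, was at 6591, 5743 and 4359 against 2412, 4383 and 1372, a difference of -1.17 ± 0.41 (SE; limma, p = 0.0247, adjusted p = 0.999992; exact permutation test, p = 0.2). Wnt4, a signal of hormone-sensing luminal cells, was at 1592, 1526 and 1498 against 552, 717 and 1336, with every Runx1-null mouse below every Runx1-WT mouse and a difference of -0.93 ± 0.33 (SE; limma, adjusted p = 0.999992; exact permutation test, p = 0.1). Foxa1, a factor that opens chromatin for the estrogen receptor, was at 6493, 6086 and 5127 against 4193, 4644 and 5426, with overlapping groups and a difference of -0.31 ± 0.13 (SE; limma, adjusted p = 0.999992; exact permutation test, p = 0.2).

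Of the other ETS family genes, 14 were on the array under a single symbol and 10 bright enough to be tested, with 4 higher, 6 lower, a median of -0.05 and 0 called. Fli1, an ETS factor of endothelial and blood cells, was the exception in order: it was at 128, 124 and 172 in Runx1-WT and at 73.5, 48.7 and 86.2 in Runx1-null mice. Every Runx1-null mouse was below every Runx1-WT mouse, and the difference was -1.05 ± 0.34 (SE; limma, p = 0.0193, adjusted p = 0.999992; exact permutation test, p = 0.1). The endothelial markers Kdr (353, 213 and 170 against 129, 152 and 150) and Tek (292, 163 and 223 against 109, 137 and 155) had the same order of genotypes. They were the only 2 of the 9 tested endothelial markers with this order, which was seen for 3.06% of all probe sets. The part of endothelial cells in the Fli1 value was not tested. Spib, an ETS factor of lymphoid cells, was at 2064 in Runx1-WT mouse 3 and at 19.6 to 147 in the other mice, the same mouse that was highest for the leukocyte list. The Fli1 difference was thus larger than any of the 24 differences described above, on a dim probe set and without passing the adjusted test.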

How the data were processed

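RNA of sorted YFP+ luminal cells was amplified and hybridized to 1 array per mouse, 3 Runx1-null and 3 Runx1-WT. The deposited values are linear intensities of 45101 probe sets, normalized by the authors with dChip, whose version and model are not given in the sources used here. The 64 control probe sets were left out, and annotation gave 34945 probe sets 1 gene symbol, 932 several and 9160 none. Values under 19.4, the 20th percentile of all values, were raised to it and log2 was taken. The 27022 probe sets whose mean reached the 40th percentile of means (73.5) were fitted with limma 3.58.1 in R 4.3.3 (lmFit, eBayes with trend, Benjamini-Hochberg over all of them). Single values and correlations were tested with exact permutations in Python 3.11.15. The members of the gene set and the other lists were chosen from general knowledge with earlier results of these data known, so no list supports its own direction. Text was given to all members, to the 2 genes of each list with the smallest p in each direction where they bear on a member, and to the 5 genes most like and most opposite to Elf5 (SD of log2 at least 0.3). Other genes, such as Csn2, Tnfsf11, Tnfrsf11b, Greb1, Foxa1, Krt18, Epcam and Spib, were named after their values were seen. A gene outside the members is shown by its brightest probe set. Alternatives were other filters, scalings, a pseudocount of 16, variance models, array weights, 1 probe set per gene, the animal number range as a block or its lower part alone, each mouse left out and the t-test that the methods name. The code was tested on simulated data.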

Additional observations from a re-analysis of the deposited data

How the results depend on the processing

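No setting called any probe set at an adjusted p under 0.05, among the ETS genes or on the whole array, with each mouse left out in turn (0 to 0) or under the 12 other settings. Of 180 recomputed differences of the brightest ETS probe sets, 151 kept their sign and 29 reversed it, all of them without passing an adjusted p of 0.05. The count of kept signs is no measure of stability, because several settings leave the difference itself unchanged. These are the other filters, the variance models, 1 probe set per gene, the block and the t-test, under which no sign could reverse. Left out 1 at a time, the mice gave -0.0156 to 0.835 for Elf5, -0.218 to 0.0597 for Elf3, -0.299 to 0.233 for Ehf, -0.533 to -0.0348 for Spdef, -0.347 to 0.102 for Ets1, -0.0444 to 0.0613 for Ets2, -0.0937 to 0.208 for Elf1, -0.238 to 0.0362 for Elf2, -0.0538 to 0.194 for Elk3 and -0.145 to 0.0924 for Etv6. Scaling each array to its median reversed Elf3 (0.0138), Ets1 (0.0048) and Etv6 (0.078). Quantile normalization reversed Ets2 (-0.0015). Array weights reversed Ets2 (-0.0027), Elf2 (0.0401), Elk3 (-0.203) and Etv6 (0.0476). The lower-range mice alone reversed Ets2 (-0.0395), Elf1 (-0.0929), Elf2 (0.0958), Elk3 (-0.0792) and Etv6 (0.0853). The cause was not tested. At an unadjusted p under 0.05 the count over all probe sets moved from 360 to 1044 without the filter, where more are tested, 199 with median scaling, 4889 with array weights, 213 with 1 probe set per gene, 598 with the animal number range as a block, 3068 in the lower-range mice, 614 with the methods' t-test, and 115 (without Runx1-WT mouse 1) to 1340 (without Runx1-WT mouse 3), with 886 without Runx1-null mouse 3. Of the 24 ETS probe sets, 0 to 4 passed it, 4 in the lower-range mice and without Runx1-WT mouse 3, 2 with array weights and 1 with the block. No paired analysis was possible because the labels give no replicate numbers and do not say which of the littermates shared a litter. The block on the animal number range, given above, is not a pairing by litter. Arrays hold no counts, so 3 mice a genotype limit the precision: 10 of the 24 intervals include a 2-fold change.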
